A study of Mus musculus with 15 samples.

Results

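The genes described here are the cytosolic ribosomal protein genes, which encode the protein part of the ribosome outside mitochondria. They were taken as the protein-coding rows of the count table whose GENCODE M21 symbol is Rpl or Rps with a number, Rplp0 to Rplp2, or Rpsa, and kinases of the Rps6k family were left out. The rule found 82 genes of 25292 in the table, of which 50 encode large-subunit and 32 small-subunit proteins. A further 5 rows carry such a symbol but are annotated as pseudogenes and were not counted as members. The rule itself uses names and biotypes and no measured value, though it was set with earlier results of these data known. After the filter on low counts 79 members were tested, and Rpl10l, Rpl3l and Rpl39l were too rare, with at most 4 reads in any library.

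Poly(A) RNA was sequenced from 15 libraries of mouse embryonic pancreas, in 5 groups of 3 biological replicates, all of strain C57/Bl6J. The wt and S1pr2 null groups are pancreata taken at 14.5 dpc, the second with the S1pr2tm1Rlp allele by the methods of the study, which removes a receptor for the lipid sphingosine-1-phosphate. The control, JTE and JTE with CTGF groups are wild-type explants of 14.5 dpc, dorsal buds by the methods, after 2 days of air-liquid interface culture in plain medium, with 15 μM JTE013, an S1pr2 antagonist, or with 15 μM JTE013 and 50 ng/ml of the secreted protein CTGF. Each library pools up to 3 pancreata or explants, and samples that are pooled show no spread between single embryos. The fresh groups and the explants differ in culture, time and dissection together, so these cannot be told apart. In bulk tissue fewer cells of a type and less RNA per cell cannot be told apart either.

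Cells make the ribosomal proteins in matched amounts, since a ribosome needs each of them. Their mRNAs are short, abundant and begin with a run of pyrimidines, through which the mTOR pathway controls their translation. Secretory tissues such as the exocrine pancreas depend on a large number of ribosomes. Over evolution the mRNAs of these genes were copied back into the genome many times, so most members have intron-less copies, annotated mainly as processed pseudogenes.

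The libraries held 11402804 to 13828737 counted reads each. Normalised read counts, here counts divided by the effective size of the library, are given throughout. S1pr2 stood at 762 to 772 in wt and at 1263 to 1458 in the libraries labelled S1pr2 null (log2 fold change 0.83). By the methods of the study the allele carries a cassette inserted in the first exon, and a count over the whole gene cannot check such an allele, so that group is named by its label.

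The copies set what the table can show, because only reads that fit a single place were counted. A member shared a median of 33.4% of its 50-base words with other annotated loci, mostly pseudogenes, up to 85.5% for Rpl36a. In 22 members 50% or more of the words were found elsewhere, and in 10 less than 10%. Copies were found for 72 members, 447 in all, of which 435 are pseudogenes and 301 have a row of their own in the table. Pairs that the results below turn on differ by single bases. Rpl26 (mm10 chr11:68901583-68906989, plus strand), a large-subunit protein near the exit tunnel, has the processed pseudogene Gm15772 (chr5:3236431-3236868) with 2 substitutions in 435 coding bases. Rps18 (chr17:33951999-33956001, minus strand), a protein of the small-subunit head, has Gm10260 (chr13:97760072-97760632), annotated as protein-coding, with 4 in 456. Rps3a1 (chr3:86137940-86142702, minus strand), a small-subunit protein that contacts initiation factors, has the processed pseudogene Rps3a3 (chr13:108670603-108671397) with 8 in 791 aligned bases. The coding stretches below show how little separates a member from its copy. Capitals mark the bases that differ, and positions count from 1 at the first coding base. Rpl26 and Gm15772 differ by C177T over bases 118 to 177, Rps18 and Gm10260 by A337C and G371A over bases 312 to 371, and Rps3a1 and Rps3a3 by T216C and T260C over bases 201 to 260.
Rpl26: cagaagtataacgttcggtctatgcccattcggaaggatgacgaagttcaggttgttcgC
Gm15772: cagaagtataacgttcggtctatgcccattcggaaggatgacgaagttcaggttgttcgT
Rps18: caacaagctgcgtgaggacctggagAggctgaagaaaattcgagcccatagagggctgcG
Gm10260: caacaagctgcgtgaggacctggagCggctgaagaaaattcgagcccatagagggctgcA
Rps3a1: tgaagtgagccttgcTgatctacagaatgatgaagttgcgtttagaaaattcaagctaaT
Rps3a3: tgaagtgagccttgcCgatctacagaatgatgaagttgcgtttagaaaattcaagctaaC

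Together the members took 2.31% ± 0.0560 (SD, n = 3) of all counted reads in wt and 2.19% ± 0.0807 in the libraries labelled S1pr2 null. Among the explants the share was 1.94% ± 0.0978 in control, 2.22% ± 0.0296 in JTE and 2.62% ± 0.131 in JTE with CTGF. The 3 explant groups did not overlap, with 1.86 to 2.05% in control, 2.19 to 2.25% in JTE and 2.48 to 2.75% in JTE with CTGF. The copies followed the same order, at 0.695% ± 0.0121, 0.806% ± 0.0203 and 0.926% ± 0.0477, against 0.624% ± 0.0092 in wt. So did the 10 members with few shared words, at 0.486% ± 0.0244, 0.556% ± 0.0017 and 0.640% ± 0.0308. A single acinar transcript, Ctrb1, took 4.01% ± 0.534 of the reads in control and 6.61% ± 0.369 in JTE with CTGF, against 0.411% ± 0.145 in wt.

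**Figure D1:**
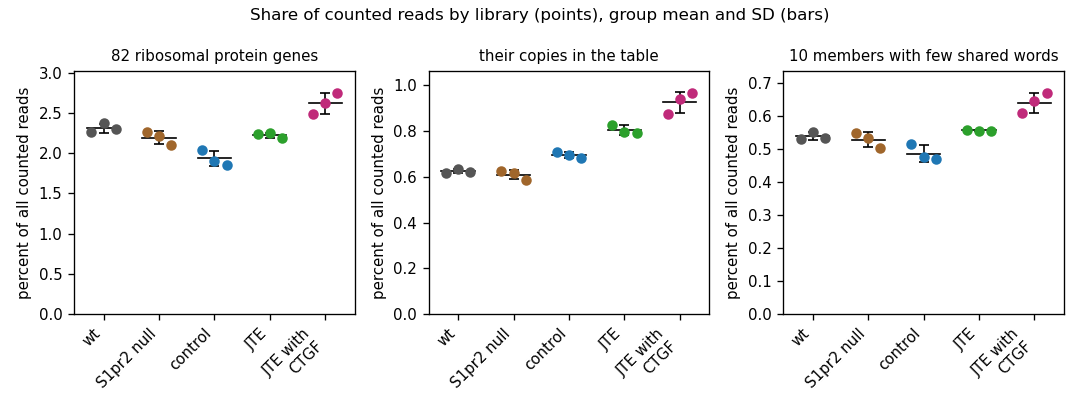
Percent of all counted reads (vertical axes, from 0) taken by the 82 members, by their copies in the table and by the 10 members with few shared words, by group. Points are the 3 libraries of a group, and bars its mean and SD. The members lie at 1.86 to 2.05% in control and at 2.48 to 2.75% in JTE with CTGF.

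Levels in wt were compared per kilobase of exon, with all annotated exons of a gene counted in its length. The order depends on these lengths. Rps3 had 20354 normalised counts in wt and Rps15 12394.5, but their lengths were 4483 and 630 bases, so that Rps3 ranked 14 per kilobase. The highest members were Rps15, a small-subunit head protein, at 19674 ± 1400 normalised counts per kilobase (SD, n = 3), Rplp1 of the stalk at 18877 ± 1542, Rpl8 at 18225 ± 1059 and Rpl4 at 14369 ± 81.6. The ranges of Rps15, Rplp1 and Rpl8 over the wt libraries overlapped, although Rps15 was the highest of them within each library, and Rpl4 was lower than each of them in every wt library. The lowest were Rps29, at 28.6 ± 4.63, and the rare Rpl39l, Rpl3l and Rpl10l, at 1.12 or below, all 3 known as paralogs used in testis or muscle. The range of the counts does not give protein levels. Rps29 had 14.3 to 24.5 normalised counts in the 6 fresh libraries while its copy Gm14303, identical over all 168 coding bases, had 6739.8 to 7561. The same held for Rps27, a zinc-finger protein of the small subunit, with 12.2 to 28.5 normalised counts against 896 to 1185 for Rps27rt, identical over 252 coding bases. Rps6, the target of S6 kinase, had 58.2 to 77.4 against 1054 to 1249 for Rps6-ps4, whose coding part is identical over 747 bases. Rpl38, known for its part in the translation of Hox mRNAs, had 14.8 to 23.6 against 416 to 507 for Rpl38-ps2. For these members the row under the gene's own name holds a small part of the reads of the family.

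The 3 explant groups were compared to ask how ribosomal protein mRNAs respond to JTE013 alone and with CTGF. The comparisons share libraries, since control enters 2 of them and JTE 2, and their values are set side by side. Against control, 34 of 79 members rose in JTE (adjusted p below 0.05, edgeR quasi-likelihood test, Benjamini-Hochberg over 16245 genes) where 25.9% of all genes tested did, and 3 fell where 26.2% did. The median log2 fold change of the members was 0.22, and that of all genes 0.00. In JTE with CTGF 64 members rose against control (background 28.1%) and 2 fell (background 33.0%), with a median of 0.44 against -0.03 for all genes. Against JTE, JTE with CTGF had 51 members higher (background 13.6%) and 1 lower (background 16.8%), with a median of 0.30 against -0.0022. The fold criterion of the study (adjusted p of at most 0.1, one group mean over 100 normalised counts, and a ratio of group levels under 0.6 or over 1.6) was met by 0 members in JTE against control (background 9.24% of protein-coding genes), by 14 in JTE with CTGF against control (background 13.2%) and by 9 in JTE with CTGF against JTE (background 1.95%). The rises were thus many and mostly smaller than 1.6-fold.

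**Figure D2:**
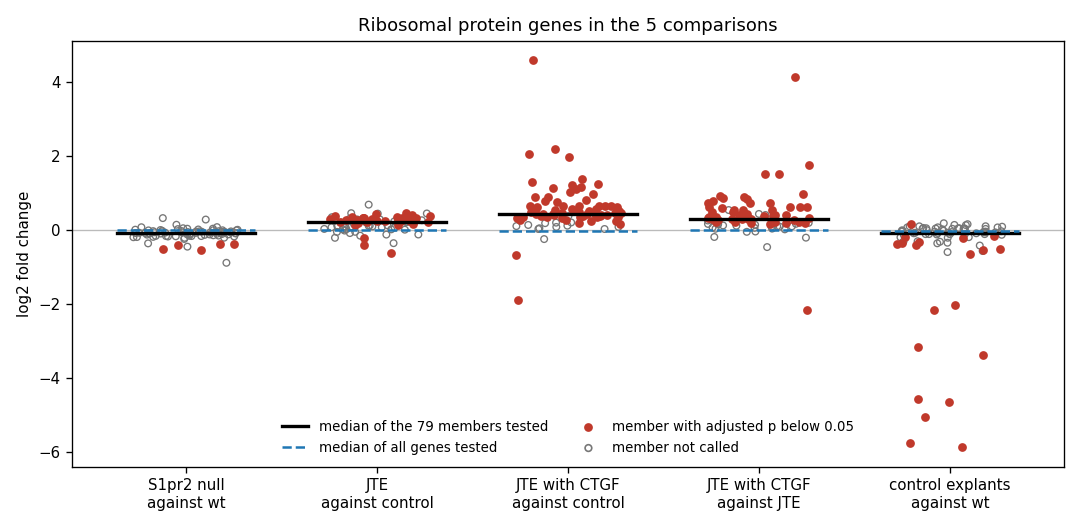
Log2 fold change (vertical axis) of each of the 79 tested members in the 5 comparisons, with filled points for an adjusted p below 0.05. Black bars are the members' medians (-0.08, 0.22, 0.44, 0.30 and -0.09 from left to right) and dashed blue bars those of all genes tested.

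Both subunits took part. Of 32 small-subunit members 13 rose in JTE and 29 in JTE with CTGF against control, and of 47 large-subunit members 21 and 35. The median log2 fold change in JTE with CTGF against control was 0.50 for the small and 0.42 for the large subunit. The group means stood in the order control, JTE, JTE with CTGF for 62 members, against 24.5% of all genes. In 24 members every single library followed that order, against 6.64% of all genes.

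Of the 7 tested members with less than 10% of their words elsewhere, 6 rose in JTE and 6 in JTE with CTGF against control, and 4 were higher in JTE with CTGF than in JTE. Rpl7l1 did not pass the test in any of the 3. Rps3, a small-subunit protein at the mRNA entry with 2.82% of its words elsewhere, rose by 0.28 ± 0.0605 (adjusted p = 0.000823, edgeR) in JTE with CTGF against control and had 0.06 ± 0.0605 (adjusted p = 0.504) against JTE. Rps20 had the largest rise of the 7. Rps20, a small-subunit head protein with 7.57% of its words elsewhere, had 3044, 2709 and 2579.5 normalised counts in control, 3675, 3590.1 and 3472 in JTE, and 4932, 5093 and 5511 in JTE with CTGF. Each group lay above the one before it. The log2 fold change was 0.37 ± 0.0590 (SE, adjusted p = 6.49e-05, edgeR) for JTE against control, 0.90 ± 0.0592 (adjusted p = 2.13e-09) for JTE with CTGF against control and 0.53 ± 0.0586 (adjusted p = 5.59e-06) for JTE with CTGF against JTE. Rpl22, a large-subunit protein with 5.16% of its words elsewhere, had 4743, 4527 and 4440.5 in control, 5338, 5601 and 5359 in JTE, and 5845, 6046 and 6511 in JTE with CTGF, a log2 fold change of 0.42 ± 0.0497 (adjusted p = 1.43e-06, edgeR) between the outer groups. Rpl8, which lies near the catalytic centre, rose by 0.51 ± 0.0695 (adjusted p = 7.56e-06, edgeR) on the log2 scale in JTE with CTGF against control. Rpl4, which lines the exit tunnel, is not one of the 7, with 16.45% of its words elsewhere. It rose by 0.57 ± 0.0466 (adjusted p = 2.46e-08, edgeR) in the same comparison.

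The stalk, through which elongation factors reach the ribosome, consists of Rplp0, Rplp1 and Rplp2. Rplp0 had 16274, 15261 and 14622 normalised counts in control, 19449.9, 20159 and 18418 in JTE, and 22310.5, 24487 and 25261 in JTE with CTGF. Its 3 groups did not overlap, and its log2 fold change was 0.64 ± 0.0629 (adjusted p = 1.88e-07, edgeR) in JTE with CTGF against control. Rplp1 rose by 0.66 ± 0.0709 (adjusted p = 5.14e-07, edgeR) in the same comparison. Rplp2 rose by 0.33 ± 0.0708 in JTE and by 0.42 ± 0.0709 in JTE with CTGF against control, and the difference between the JTE groups did not pass the test (0.09, adjusted p = 0.359, edgeR).

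Among members past the fold criterion in JTE with CTGF against control were Rps24, a small-subunit protein, at 1.30 ± 0.0858, Rpl13 at 1.15 ± 0.0966, Rpl39 of the exit tunnel at 1.14 ± 0.0646, Rpl14 at 1.03 ± 0.0744 and Rps10 of the head at 0.98 ± 0.0732 on the log2 scale (adjusted p of 3.36e-08 or less, edgeR). Rpl39 had 1277, 1318 and 1122 normalised counts in control, 1506, 1558 and 1496 in JTE, and 2565, 2628 and 2975 in JTE with CTGF. Most of its rise thus lay between the JTE groups (0.84 ± 0.0638, adjusted p = 1.81e-07, edgeR). Summed with its copies, Rps24 rose by 1.01, Rpl39 by 0.87 and Rpl14 by 0.59 on the log2 scale, less than each gene alone, while Rpl13 rose by 1.19 and Rps10 by 0.99. The numerically larger values of Rpl23a, Rps27 and Rps29 (2.19, 1.97 and 2.04) come from rows with means of 54.5 to 80.9 in JTE with CTGF, and fell to 0.93, 0.70 and 0.36 with the copies.

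A few members went the other way. Rpl27, a large-subunit protein, had 323, 316 and 259 normalised counts in control, 192, 203 and 191 in JTE, and 176, 194 and 197 in JTE with CTGF. Control did not overlap either JTE group, and the log2 fold change was -0.62 ± 0.0976 (adjusted p = 5.32e-05, edgeR) in JTE and -0.67 ± 0.0997 (adjusted p = 2.11e-05) in JTE with CTGF. It kept this direction with its copies, at -0.57 and -0.50. Rpl5, which with Rpl11 and the 5S rRNA can bind Mdm2, had 542, 522 and 469.7 in control, 424, 402 and 341 in JTE, and 593, 653 and 678 in JTE with CTGF. Its own row fell by 0.40 on the log2 scale in JTE (adjusted p = 0.000556, edgeR). Its copy Gm15500, identical over 891 coding bases, stood at 1889 to 2083 in control and 2275 to 2476 in JTE, and the sum of Rpl5 and its copies was higher in JTE by 0.15 ± 0.0574 (adjusted p = 0.0404, edgeR). Rpl27a, a large-subunit protein, had -0.21 ± 0.0709 alone (adjusted p = 0.0189, edgeR) and 0.03 with its copies (adjusted p = 0.801).

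Other members with a known second role had positive log2 fold changes in JTE with CTGF against control, though not every value passed the test. Rpl11 had 0.08 ± 0.204 (adjusted p = 0.741, edgeR) in JTE with CTGF against control in its own row and 0.42 ± 0.0772 (adjusted p = 0.000157) with its copies. Rpl23, which can also bind Mdm2, rose by 0.36 ± 0.0621 in JTE and by 0.54 ± 0.0622 in JTE with CTGF. Rps14, a platform protein of the small subunit, rose by 0.28 ± 0.0824 and 0.38 ± 0.0824. Rps27a, made as a fusion with ubiquitin, rose in JTE with CTGF (0.66 ± 0.172, adjusted p = 0.00334, edgeR), where its 3 libraries had 148 to 153 normalised counts against 76.4 to 113 in control. Rpsa, a small-subunit protein also described as a laminin receptor, was higher in JTE with CTGF by 0.83 ± 0.141 (adjusted p = 7.96e-05, edgeR) in its own row and by 0.27 ± 0.140 (adjusted p = 0.108) with its copies.

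The paralogs were set beside their partners. Rpl22l1, which can take the place of Rpl22, had 0.03 ± 0.0702 in JTE (adjusted p = 0.739, edgeR) where Rpl22 had 0.25 ± 0.0497 (adjusted p = 0.000462), and rose by 0.38 ± 0.0699 (adjusted p = 0.00017) in JTE with CTGF against control. Rpl7l1, a paralog of Rpl7, did not pass the test in any comparison among the explants, with 0.03 ± 0.0797 (adjusted p = 0.779, edgeR) in JTE with CTGF against control. Rps27l, a paralog of Rps27 induced by p53, had 956 to 1210.3 normalised counts in control and 1207 to 1421 in JTE with CTGF, a difference of 0.24 ± 0.0871 (adjusted p = 0.0232, edgeR) between groups that overlapped.

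Adding the reads of the copies raised the number of members called higher in each comparison of the explants, while several of the large single rises became smaller. With each member summed with its copies, 48 of 79 rose in JTE (background 26.2%), 74 in JTE with CTGF against control (background 28.1%) and 53 in JTE with CTGF against JTE (background 13.5%). The medians were 0.23, 0.46 and 0.28 on the log2 scale, against 0.22, 0.44 and 0.30 for the members alone. The fold criterion was met by 0, 16 and 7 members with copies, against 0, 14 and 9 alone. Transcript length moved with the JTE with CTGF comparisons. Among other genes with a mean above 100, the rank correlation of the log2 fold change with transcript length was -0.473 (Spearman, across 10881 genes) for JTE with CTGF against JTE, -0.196 for JTE with CTGF against control and 0.067 for JTE against control. For transcripts of up to 1000 bases the median was 0.27 in 56 members and 0.11 in 1853 other genes for JTE with CTGF against JTE. It was 0.43 in 56 members and 0.08 in 1914 other genes for JTE with CTGF against control, and 0.22 in 52 members and 0.01 in 1900 other genes for JTE against control. The part of length in the result was not tested further.

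The make-up of the explants moved with the treatment too. The summed normalised count of 10 macrophage markers was 6667 to 6875 in control, 2304 to 2860 in JTE and 2003 to 2931 in JTE with CTGF, and all 10 markers fell in both JTE groups. That of 10 endocrine markers was 68340 to 79158, 18216 to 22909 and 19123 to 27341. That of 12 acinar markers was 593673 to 796281, 583458 to 1066734 and 1089409 to 1240608, and that of 12 erythroid markers 266 to 557, 283 to 709 and 1469 to 2407. Against control 1 of 11 tested acinar markers rose and 2 fell in JTE, and 4 rose and 1 fell in JTE with CTGF. Of 12 erythroid markers 0 rose and 1 fell in JTE, and 6 rose and 1 fell in JTE with CTGF. Of 10 endocrine markers 10 fell in JTE and 9 in JTE with CTGF. Of 11 mesenchyme markers 3 rose and 4 fell in JTE, and 2 rose and 3 fell in JTE with CTGF. Of 10 epithelial markers 7 fell in each JTE group, with sums of 41458 to 48092, 27674 to 34761 and 30228 to 33357, and of 8 endothelial markers 7 fell in each, with sums of 6659 to 8152, 4831 to 5414 and 4605 to 5433. No marker of these lists was at 0 in every library of a group. The part of these cells in the rise of the members was not tested.

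The pancreata labelled S1pr2 null were compared with wt to ask what the genotype does to the same genes. Of 79 members 0 rose (background 12.6%) and 5 fell (background 13.3%), and 0 met the fold criterion (background 3.36%). DESeq2 called 4 members, a fit to only these 6 libraries called 15 with 1 past the criterion, and 2 to 9 were called when any single library was dropped. The share of all genes called under these other settings is not given here, so these counts were not set against a background. The largest fitted fall was that of Rps2, a small-subunit protein, with 2499.9, 2741 and 2568 normalised counts in wt and 1598, 1260.4 and 1371 in the null libraries. Its groups did not overlap, yet it did not pass the test alone (-0.89 ± 0.492, adjusted p = 0.204, edgeR) and passed it with its copies (-0.84 ± 0.210, adjusted p = 0.00692). The fit takes the spread of a gene from all 15 libraries, explants included. The ratio of the highest to the lowest Rps2 count, each plus 1, was 1.1 in wt and 1.27 in the null libraries. It was 7.75 in control and 10.17 in JTE. The median log2 fold change of the members was -0.08, against -0.01 for all genes. Rpl13a, a large-subunit protein that can also silence translation of inflammatory mRNAs, had 10568, 11219 and 10854 normalised counts in wt and 8369, 8143 and 8006 in the null libraries. The groups lay well apart, with a log2 fold change of -0.41 ± 0.0535 (adjusted p = 3.49e-05, edgeR), and -0.42 with the copies. Rps27l had 1045, 1165 and 1185 in wt and 792, 771 and 763 in the null libraries (-0.55 ± 0.0880, adjusted p = 0.000269, edgeR). Rpl10a, Rps12 and Rpl29 also fell, by 0.38, 0.39 and 0.52 on the log2 scale, with adjusted p of 0.024, 0.0367 and 0.0446 (edgeR). For Rpl10a and Rps12 the call was lost with the copies (adjusted p = 0.0626 and 0.0532) and also without any one of wt replicates 2 and 3 or of the 3 null libraries, and the groups of Rpl29 overlapped, with 910.3 to 1060.3 in wt and 431 to 959.7 in the null libraries. A copy of Rplp1, Gm11942, had 16 to 24.3 normalised counts in wt and 259, 716 and 379 in the null libraries, while Rplp1 itself did not pass the test (-0.12 ± 0.0706, adjusted p = 0.243, edgeR). Acinar markers also fell in these pancreata, 9 of 11 tested, with summed counts of 81472 to 137566 in wt and 28776 to 31239 in the null libraries. Endocrine markers fell likewise, 9 of 10. Their part in the values of the members was not tested.

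Control explants were compared with fresh wt pancreata to see how the members stand after 2 days in culture. Of 79 members 1 was higher (background 28.5%) and 19 were lower (background 29.3%), and 9 met the fold criterion (background 13.6%), all of them lower. The median log2 fold change was -0.09 against -0.02 for all genes, and 0.0186 in the 7 tested members with few shared words. In 7 members every one of the 9 cultured libraries was below 50% of the lowest of the 6 fresh ones, against 1.48% of all genes. These were Rpl3, Rpl26, Rpl29, Rpl34, Rpl35a, Rps18 and Rps19.

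In part of these a copy was higher in the cultured libraries where the member was lower, though not by equal amounts. Rpl26 had 1773 to 2313 normalised counts in the fresh libraries and 45.8 to 93.8 in the cultured ones, while its copy Gm15772, the pair printed above, went from 106 to 151 up to 3612 to 5414. A second copy, Gm11826, went down with Rpl26, from 707 to 855 to 12.7 to 34.4. The log2 fold change of Rpl26 in control against wt was -5.06 ± 0.116 (adjusted p = 2.1e-15, edgeR) alone and 0.34 ± 0.0596 (adjusted p = 0.000122) with its copies. Rps18 had 1939 to 2549 fresh and 192 to 336 cultured, and Gm10260 15.7 to 37.8 fresh and 4794 to 6265 cultured. For Rps18 the log2 fold change was -3.16 ± 0.138 (adjusted p = 8.8e-12, edgeR) alone and 1.12 ± 0.0548 (adjusted p = 3.41e-11) with its copies. In both genes the member and its copy changed places in every cultured library, under all 3 media.

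Rps3a1 was below its copy Rps3a3 in all 9 cultured libraries and above it in all 6 fresh ones, but the size of its fall differed. It had 1753 to 2243 normalised counts in the fresh libraries, 42.5, 38.2 and 32.3 in control, 55.0, 57.2 and 42.8 in JTE, and 1182, 80.2 and 1488 in JTE with CTGF. Rps3a3 had 254 to 911 fresh and 3149 to 6019.5 cultured, with the highest value in the JTE with CTGF library where Rps3a1 stayed low. The copy Rps3a2 followed Rps3a1, at 181, 3.4 and 251 in JTE with CTGF. The rise of the Rps3a1 row in JTE with CTGF against control (4.60 ± 0.703, adjusted p = 2.58e-05, edgeR) thus came from 2 of its 3 libraries. With the copies the values were 3189 to 3593 in control, 3674 to 3861 in JTE and 5531 to 6578 in JTE with CTGF, a log2 fold change of 0.82 ± 0.0686 (adjusted p = 3.21e-08, edgeR).

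**Figure D3:**
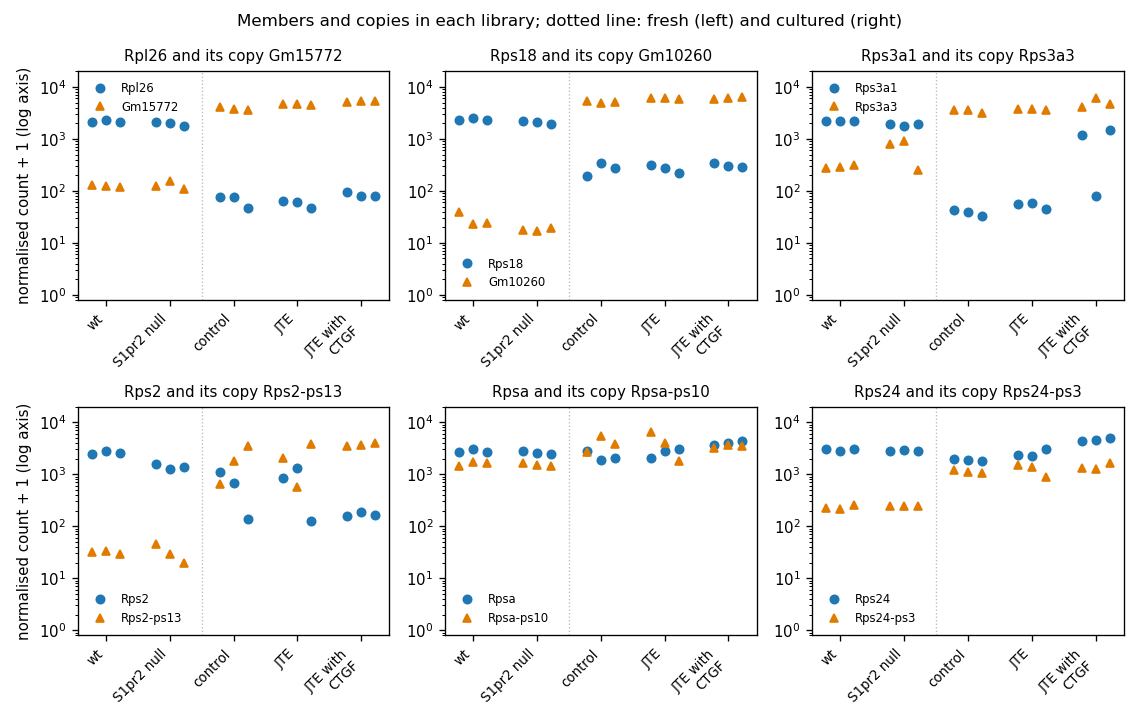
Normalised read count plus 1 (log axis) of 6 members (circles) and a copy of each (triangles) in all 15 libraries, by group. Fresh pancreata are left of the dotted line and cultured explants right of it. Rpl26, Rps18 and Rps3a1 lie below their copy in every cultured library, and Rps2 and Rpsa in part of them.

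Rps2 and Rpsa differed between replicates in the same manner. Rps2, a small-subunit protein at the mRNA entry, had the fresh values given above. In control it had 1088, 673 and 139.5, in JTE 864, 1305 and 127, and in JTE with CTGF 157, 189 and 167. Its copy Rps2-ps13 ran the opposite way, at 656, 1782 and 3487 in control, 2031, 575 and 3801 in JTE, and 3431, 3709 and 4001 in JTE with CTGF, against 18.5 to 45.1 fresh. The fall of the Rps2 row in JTE with CTGF (-1.89 ± 0.654 against control, adjusted p = 0.0192, and -2.15 ± 0.645 against JTE, adjusted p = 0.018, edgeR) was between groups that overlapped, and with its copies Rps2 had 0.59 (adjusted p = 0.0206, edgeR) and 0.44 (adjusted p = 0.122). Rpsa had 2808, 1881 and 2029 in control and 2019, 2763 and 3002 in JTE, and Rpsa-ps10 2722, 5346 and 3821 in control and 6375, 4067 and 1789.5 in JTE. In each of these groups the library with the highest Rpsa had the lowest Rpsa-ps10. Rps28 had 2613, 1789.5 and 969.5 in control and 2155, 2849 and 1244 in JTE against 1972 to 2305 fresh, with its copies Gm10443 and Gm10263 up to 771 and 361 in the cultured libraries against at most 233 and 19.6 fresh. Rps24 had 2771 to 3030.1 in the fresh libraries and 1826 to 1963 in control, with Rps24-ps3 at 216 to 251 fresh and 1071 to 1203 in control, so that the fall of -0.64 ± 0.0853 (adjusted p = 6.34e-06, edgeR) went to -0.06 (adjusted p = 0.377) with the copies.

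For the other falls no copy in the table rose by an amount near that of the fall. Rpl29, a large-subunit protein, had 949, 1060.3 and 910.3 normalised counts in wt, 959.7, 648 and 431 in the null libraries and 7.4 to 23.5 in the 9 cultured libraries. Its copy Gm8210 had 0 to 16.8 fresh and 14.3 to 42.4 cultured. Rpl34 had 2017 to 2256 fresh and 70.5 to 109 cultured, and its copy Gm10154 went from 518 to 597 to at most 6.9. Rpl35a had 2034 to 2297 fresh and 69.8 to 144 cultured. The log2 fold changes in control against wt were -5.75 ± 0.305, -4.56 ± 0.0995 and -4.65 ± 0.106 alone, and -4.11, -4.30 and -4.28 with the copies. Rps19, mutated in Diamond-Blackfan anaemia, had 2267 to 2606 fresh and 508 to 749 cultured, -2.17 ± 0.0636 (adjusted p = 5.57e-14, edgeR) alone and -2.11 with the copies. Rpl3, which lies at the catalytic centre, had 1644 to 2211 fresh and 173 to 308 cultured, with Rpl3-ps1 at 704 to 812 fresh and 873 to 1283 cultured, and the fall went from -3.37 to -1.33 with the copies. Among the explants the low level of these members still differed by medium. In JTE with CTGF against control Rps19 rose by 0.35 ± 0.0667 (adjusted p = 0.000234, edgeR), Rpl35a by 0.46 ± 0.143 (adjusted p = 0.00987) and Rpl3 by 0.43 ± 0.132 (adjusted p = 0.0101) on the log2 scale. The own rows of Rpl34 and Rpl29 did not pass the test (adjusted p = 0.523 and 0.798, edgeR). Summed with its copies, Rpl34 had 135.2 to 158.8 in control and 203.0 to 211.3 in JTE with CTGF. Rpl29 with its copies had 51.0 to 61.5 and 90.5 to 102.1.

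**Figure D4:**
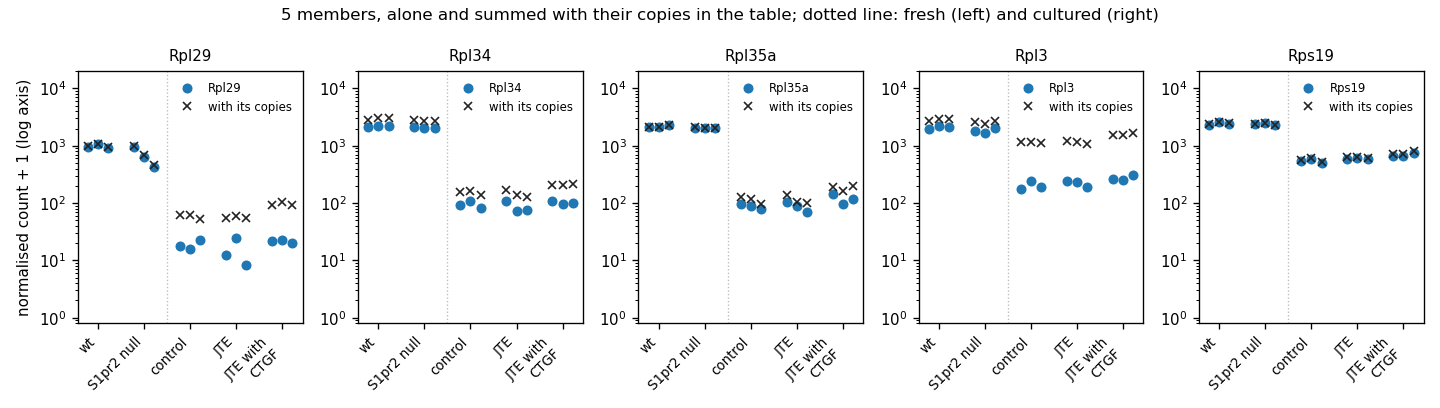
Normalised read count plus 1 (log axis) of Rpl29, Rpl34, Rpl35a, Rpl3 and Rps19 alone (circles) and summed with their copies (crosses) in all 15 libraries, fresh left and cultured right of the dotted line. Rpl34 goes from 2017 to 2256 fresh to 70.5 to 109 cultured, and its sum with the copies from 2682 to 3006 to 128 to 211.

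With copies summed, control explants had 7 members higher (background 28.7%) and 12 lower (background 29.5%) than wt, 6 met the fold criterion, and the median was -0.05. A fall of this kind was not seen in members only. Hmgn2, a chromatin protein chosen after its values were seen, had 898 to 1744 normalised counts fresh and 110 to 204 cultured, and Vcp, an ATPase of protein quality control chosen likewise, 2289.9 to 2593 fresh and 338 to 525 cultured. Cell type markers moved with culture in both directions. All 12 erythroid markers fell, from a summed count of 15396 to 18005 in wt to 266 to 557 in control, while 9 of 11 acinar markers rose (81472 to 137566 and 593673 to 796281), as did 8 of 10 macrophage markers (2893 to 3020 and 6667 to 6875) and 5 of 10 endocrine markers (29584 to 33039 and 68340 to 79158). Of the acinar markers 0 fell, and of the macrophage and endocrine markers 1 each. Of 10 epithelial markers 5 rose and 1 fell, of 8 endothelial markers 3 and 4, and of 11 mesenchyme markers 5 and 4. Among all genes tested 28.5% were higher and 29.3% lower. The methods of the study give a single alignment and counting procedure for all libraries, but how reads were assigned between members and copies was not tested. The part of these cells in the falls was not tested either.

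**Figure D5:**
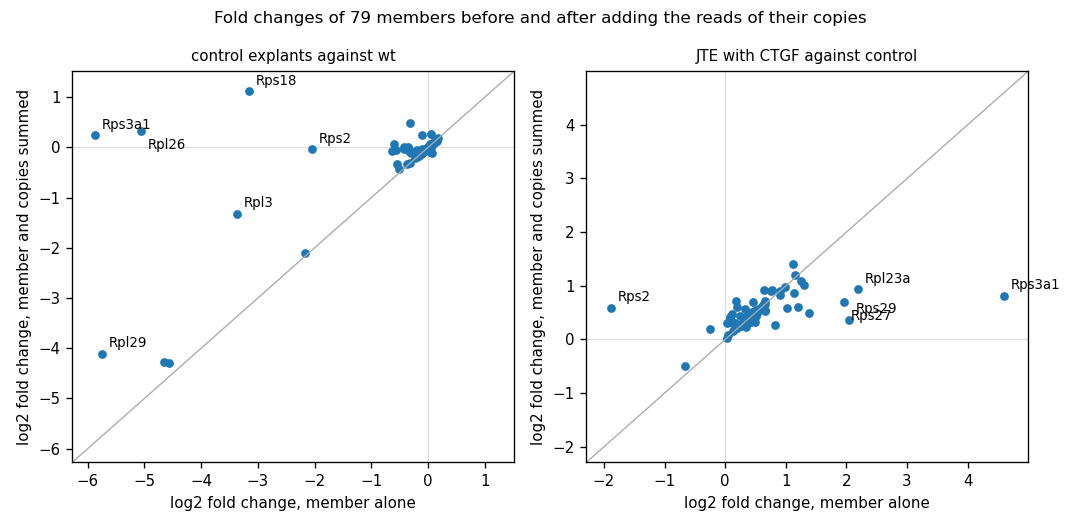
Log2 fold change of the 79 members alone (horizontal) and summed with their copies (vertical) for control explants against wt and JTE with CTGF against control. The line marks equal values. Rpl26, Rps18 and Rps3a1 leave the fall when copies are added (0.34, 1.12 and 0.24), whereas Rpl29 stays at -4.11.

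Other parts of the translation machinery were read from lists, against 25.9% of all genes higher and 26.2% lower in JTE, and 28.1% and 33.0% in JTE with CTGF against control. Of 33 elongation and initiation factors 13 rose and 5 fell in JTE, and 18 rose and 6 fell in JTE with CTGF against control, with medians of 0.10 and 0.27. Eef1g, a subunit of elongation factor 1, was higher by 0.47 ± 0.0480 (adjusted p = 2.6e-06, edgeR) in JTE with CTGF against JTE. Of 62 ribosome biogenesis factors tested 22 rose and 4 fell in JTE, and 24 rose and 12 fell in JTE with CTGF against control, with medians of 0.09 and 0.06. Fbl, the rRNA methyltransferase, fell by 1.11 on the log2 scale there (adjusted p = 9.56e-08, edgeR), from a mean of 869 to 404. In control explants against wt 0 of these 62 rose (background 28.5%) and 50 fell (background 29.3%), with a median of -0.36, among them Dkc1, the pseudouridine synthase, at -0.72 ± 0.0469. Of 22 genes of translation control 10 rose and 2 fell in JTE, and 7 rose and 7 fell in JTE with CTGF against control, with medians of 0.15 and -0.01. Mycn, a transcription factor that drives ribosome production, fell by 0.64 and 0.66 on the log2 scale. Atf4, a transcription factor of the amino acid response, rose by 1.20 ± 0.0693 in JTE and 1.38 ± 0.0696 in JTE with CTGF, Sesn2, an inhibitor of mTOR signalling, by 1.67 ± 0.0773 and 1.51 ± 0.0776, and Eif4ebp1, a repressor of cap-dependent translation, by 1.37 ± 0.0588 and 1.70 ± 0.0589 on the log2 scale against control, all with an adjusted p of 7.24e-10 or less (edgeR). In JTE with CTGF against JTE, Tsc1, an inhibitor of mTOR signalling, and Mtor itself were lower, at -0.52 ± 0.0789 and -0.50 ± 0.0693. In that comparison the median over other genes with transcripts longer than 4000 bases was -0.23.

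The starts of the members' mRNAs were read from the RefSeq promoter windows (GRCm38.p6), 74 windows for 62 members, because members that move together may share start motifs. The letters CTTT on the coding strand began within 5 bases of the start in 18.9% of the members' windows and in 5.17% of all 32851 windows. CGGAAG, on either strand anywhere in the 300 bases, was in 59.5% and 16.9%, and ATGGCGG, on either strand, in 18.9% and 4.05%. TATAAA 20 to 40 bases before the start was in 1.35% and 1.99%. These are matches of letters, counted without a test. CTTT near the start was in 14 of the members' 74 windows. It was absent from those of Rps24, Rpl39, Rpl14 and Rpl13, which also rose in JTE with CTGF. Rpl27a, whose own row fell in JTE, has CTTT near the start. So does Rpl28, with mean normalised counts of 334.8 in control and 355.2 in JTE with CTGF. A link between CTTT and the rises was not tested. The windows below run from 30 bases before the start to 15 bases into the transcript, in transcript direction. They are from 4 members picked among those that rose in JTE with CTGF and have CTTT near the start, marked by capitals. Of these, Rpl38 had only 8.3 to 51.5 normalised counts in the explants.
Rplp2: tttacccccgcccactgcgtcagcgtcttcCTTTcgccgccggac
Rps10: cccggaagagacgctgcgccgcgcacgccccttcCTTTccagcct
Rpl15: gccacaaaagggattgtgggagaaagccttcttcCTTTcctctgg
Rpl38: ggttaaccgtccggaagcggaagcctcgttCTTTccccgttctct
They lie at chr7:141447621-141447665 (plus strand), chr17:27635230-27635274 (minus), chr14:18270972-18271016 (minus) and chr11:114668550-114668594 (plus).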

How the data were processed

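Gene expression was measured by strand-specific poly(A) RNA sequencing in 15 libraries. Per the labels and the methods of the study, the authors aligned reads to mm10 with GSNAP and deposited the raw count of uniquely aligned reads per Ensembl gene from featureCounts 1.4.6. Whether counting used the strand was not given in the sources used here, so reads of overlapping genes may be shared. Groups and replicate numbers came from the sample titles. The members and lists were chosen with earlier results of these data known.

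Symbols and biotypes came from GENCODE M21 (mm10) and were found for 24750 of 25292 IDs. Words of 50 bases of each member's protein-coding transcripts were looked up in all other annotated transcripts, since no genome sequence was used here although the plan named the genome, so copies outside the annotation were not seen. Member and copy sequences are from GENCODE M21 transcripts and start windows from RefSeq (GRCm38.p6). A copy is another locus with at least 50 shared words that make up at least 20% of its own. Coding parts were aligned with Biopython 1.88.

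Counts were tested in R 4.3.3 with edgeR 4.0.16 (quasi-likelihood F-test, TMM, filterByExpr, all 15 libraries, 1 coefficient per group, Benjamini-Hochberg over 16245 genes). A standard error is the log2 fold change over the root of the F statistic. The test was tried on simulated counts. Alternatives were DESeq2 1.42.0 and its size factors, no filter, fewer libraries, a replicate block, TMM without members, members summed with copies, members with few shared words, other word lengths and each library left out. The common biological coefficient of variation was 7.3%, and total counts were 11402804 to 13828737.

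Named members are those past the fold criterion in any comparison, the 4 largest rises and falls per comparison between groups that do not overlap, paralogs with their partners, the 4 highest and 4 lowest in wt per kilobase, 12 set members with stalk or second roles, and those with 50% or more of their words elsewhere. From the lists of other genes these are the 3 largest rises and falls per comparison past adjusted p 0.05. The text gives the values of part of these. A few items are not reported here.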

Additional observations from a re-analysis of the deposited data

How the results depend on the processing

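Limits came mainly from copies. With members summed with their copies 7 values reversed: in JTE against control Rpl27a went to 0.026 and Rpl5 to 0.15, Rps2 went to 0.59 in JTE with CTGF against control and to 0.44 against JTE, and in control explants against wt Rpl26, Rps18 and Rps3a1 went to 0.34, 1.12 and 0.24. This alternative also put 1 member past the fold criterion in S1pr2 null against wt. Restricted to the 7 tested members with few shared words, the members called were 0 in S1pr2 null against wt, 6 in JTE against control, 6 in JTE with CTGF against control, 4 against JTE and 2 in control explants against wt, past the criterion were 1 in JTE with CTGF against control, 0 against JTE and 0 in control explants, and medians were -0.0404 (S1pr2 null against wt), 0.18 (JTE with CTGF against JTE) and 0.0186 (control explants, where the sign turned from -0.09). Fewer genes entered the counts, and the cause of the moved medians was not tested. The shares of all 10 such members were 0.539% in wt, 0.529% in S1pr2 null, 0.486% in control, 0.556% in JTE and 0.640% in JTE with CTGF. Words of 36 and 75 bases gave medians of 39.9% and 26.2%. In S1pr2 null against wt 8 members were called without the filter and 15 with only the libraries of the comparison, each with 1 past the criterion, and the cause was not tested. These counts, and those past the criterion with copies, are given without the share of all genes under the same setting.

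Leaving out 1 library at a time, the members called ranged over 2 to 9 in S1pr2 null against wt, 29 to 42 in JTE against control, 62 to 69 in JTE with CTGF against control, 40 to 54 against JTE and 17 to 22 in control explants. Those past the criterion ranged over 0 to 1, 0 to 0, 14 to 19, 8 to 10 and 9 to 9. In S1pr2 null against wt 2 were called without wt replicate 2 or 3 or without S1pr2 null replicate 2 or 3, and 9 without JTE replicate 3, which enters only the estimate of spread. Called higher were 25 to 39 in JTE, and the Rps2 fall lost its call without control replicate 1 (-1.26 against control), without JTE replicate 2 (-1.51 against JTE) and without JTE with CTGF replicate 1 or 3. The rise of Rpl13a in control explants lost its call without wt replicate 1 or 3 or control replicate 1. Of the values of named members, 1081 kept direction and call, 34 lost the call and 7 reversed.

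Replicate numbers did not pair the samples, since correlations of same-numbered deviations ran from -0.097 to 0.248. With the replicate block 5, 37, 67, 51 and 20 members were called, in the order above.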
